A study of Mus musculus with 7 samples.

Results

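The receptors of the natural killer (NK) gene complex and Cd69 were described in maps of LEF1 and TCF1, made by CUT&RUN in naive mouse CD8 T cells. CUT&RUN releases DNA fragments around a protein with an antibody-guided nuclease, and a peak is an interval where such fragments pile up. The 9 genes were Klrg1, Klrb1c, Clec2d, Cd69, Klre1, Klrd1, Klrk1, Klrc2 and Klrc1, all on chromosome 6. Peak intervals of the 6 lists that touched a gene body or the 10 kb on each side were taken and merged where they shared at least 1 bp. This gave 119 peak intervals in 27 regions, of 38231 regions over the whole genome. All coordinates are on GRCm38.p6.

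There were 3 LEF1 and 3 TCF1 libraries. All came from wild-type CD8 T cells with the transgenic P14 receptor, which recognises a peptide of lymphocytic choriomeningitis virus. Cells were sorted from spleen as CD8+, Ly5.1+, CD44- and CD62L+, the surface pattern of naive cells. The labels give neither age nor sex, and do not say whether replicates came from separate animals, so the spread between libraries may be technical. An input control from another sort gate (Ly5.1-, CD44+) was not used here. The lists held 11423 to 37646 peaks, with TCF1 replicate 3 the shortest and LEF1 replicate 2 the longest. The files do not state sequencing depth, and peak lists hold no expression by which the sorted cell type could be checked.

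The NK gene complex is a run of genes for C-type lectin-like proteins that sit on NK cells and on subsets of T cells. Klrd1 encodes CD94, which pairs with the Klrc1 product NKG2A to form an inhibitory receptor and with the Klrc2 product NKG2C to form an activating one, and both pairs read the non-classical MHC molecule Qa-1. Klrk1 encodes NKG2D, an activating receptor for stress-induced ligands. Klrb1c encodes NK1.1, a standard NK cell marker, and Clec2d encodes a ligand of inhibitory receptors of the Klrb1 family. Cd69 marks recently activated and tissue-resident T cells and holds cells in tissue by acting against the receptor S1PR1. Klrg1 marks terminal effector cells. LEF1 and TCF1, the product of Tcf7, are HMG-box proteins of naive and stem-like T cells.

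The start of Clec2d is shown first, because among the member promoter windows at hand it was the only one that a region touched. RefSeq promoter windows (GRCm38.p6) were at hand for 6 of the 9 genes, in 8 windows. The windows of Klre1 overlap each other, as do those of Klrc2, so the 8 are not separate promoters. Those of Klre1 and Klrc1 lie inside the annotated genes. Klre1, on the plus strand, begins at 129559365, and Klrc1, on the minus strand, at 129682852. For both genes the window is thus not at the outer end of the gene. Cd69, Klrd1 and Klrg1 had no window and are named only, so whether a region covers their start sites was not checked. Region 16, found in all 6 libraries, spanned the higher-coordinate end of Cd69, but the strand of that gene was not used here. No region touched 7 of the 8 windows at hand, where none touched 73.4% of all promoter windows. The Clec2d sequence runs from 129180365 to 129180644 on the plus strand, and its 30 capitals mark the bases from the annotated start site at 129180615 on. Summits, the points of highest signal, lay 62, 14 and 62 bases past this start site in LEF1 replicates 1, 2 and 3. They lay 14, 55 and 14 bases past it in TCF1 replicates 1, 2 and 3. The 3 summits at 14 bases fall within the capitals. The Klrc1 window is the contrast: no region touched it, although it was the only 1 of the 8 windows with a match to a TCF/LEF motif. The printed Klrc1 sequence runs from 129678944 to 129679223 on the minus strand, with the match in capitals.
Clec2d: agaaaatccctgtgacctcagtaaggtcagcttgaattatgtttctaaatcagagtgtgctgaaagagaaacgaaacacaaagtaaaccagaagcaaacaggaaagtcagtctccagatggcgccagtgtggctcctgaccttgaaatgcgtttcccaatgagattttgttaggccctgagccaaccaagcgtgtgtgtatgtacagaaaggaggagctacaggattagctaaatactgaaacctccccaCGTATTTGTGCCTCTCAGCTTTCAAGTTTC
Klrc1: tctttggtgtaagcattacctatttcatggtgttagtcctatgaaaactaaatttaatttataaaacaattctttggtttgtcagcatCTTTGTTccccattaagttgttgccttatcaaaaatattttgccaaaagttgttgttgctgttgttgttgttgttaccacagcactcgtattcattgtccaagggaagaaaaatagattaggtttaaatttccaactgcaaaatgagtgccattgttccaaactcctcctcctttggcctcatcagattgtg

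The motifs searched were CTTTGAA and CTTTGAT, followed by CTTTGTA and CTTTGTT, on both strands of windows that reach from 250 bases before to 50 bases after a start. The match in Klrc1 was CTTTGTT. Of all 32817 promoter windows, 16.9% held at least 1 match. The share was 13.4% of the 4300 windows touched by a region of all 6 libraries and 18.6% of the 24085 touched by none. For CTTTGAT alone the order was the opposite, with 4.21% and 3.95%, against 3.73% of all windows. These differences were not tested. A match is a run of letters and not a binding site. The absence of a match at Clec2d says only that these letters are not in that window.

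Along the chromosome the 9 genes fell into 4 groups. Klrg1 stood 6.50 Mb from the rest. Klrb1c followed, and 392 kb further came Clec2d and then Cd69, with 80.8 kb between them. The last group began 284 kb beyond Cd69, in the order Klre1, Klrd1, Klrk1, Klrc2 and Klrc1. The 27 regions were numbered 1 to 27 in this order. Clec2d and Cd69 had 8 regions each, Klrd1 5, Klre1 and Klrk1 4 each, and Klrg1, Klrb1c and Klrc1 1 each. Klrc2 had none. Of the regions, 3 were shared by Klre1 and Klrd1 and 2 by Klrd1 and Klrk1, so the counts per gene add to 32. Region 26 also lay within 10 kb of Klrc3, another NKG2 gene, and no other protein-coding gene shared a region with the members.

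Density differed widely between neighbours. Among the 7960 protein-coding genes in the members' range of length, 5.92 to 26.5 kb, only 1.44% had 8 or more regions, as Clec2d and Cd69 did. Klrd1 with 5 regions stood at 7.22% and Klre1 and Klrk1 with 4 at 12.5%. At least 1 region was found at 65.4% of these genes, at 59.4% of all protein-coding genes and at 8 of the 9 members. The mean was 3.56 regions over the 9 members, against 1.60 over the genes of this length and 1.86 over all 21887 protein-coding genes. Members share regions, so they are not separate observations.

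**Figure D1:**
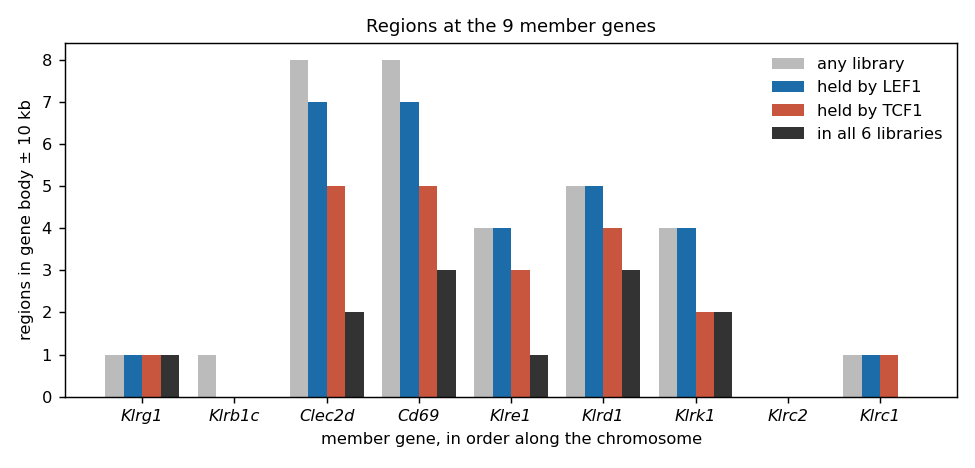
Number of regions touching the body or its 10 kb flanks (y axis) for each member gene in order along chromosome 6 (x axis), for regions of any library, held by LEF1, held by TCF1 and found in all 6 libraries. Clec2d and Cd69 reach 8 regions each, and Klrc2 has none.

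A factor was said to hold a region when at least 2 of its 3 libraries had a peak there. LEF1 held 24 of the 27 regions, where it held 71.7% of all regions. TCF1 held 17, where it held 55.5% of all regions. All 17 were also held by LEF1, and 53.6% of all regions were held by both. Peaks in all 6 libraries were found at 9 regions, where the share over all regions was 28.5%. Another 3 regions (11, 12 and 20) had a peak in every LEF1 library and none in TCF1 libraries, where 3.14% of all regions did. No member region had the reverse pattern, which 0.0183% of all regions had. Regions 11, 12 and 20 stood in the weaker part of each LEF1 list.

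By gene, 7 of the 9 members had a region held by LEF1 and the same number one held by TCF1. The share was 52.6% and 49.8% of all protein-coding genes, and 57.7% and 54.6% of those of the members' length. A region of all 6 libraries stood at 6 members, Klrg1, Clec2d, Cd69, Klre1, Klrd1 and Klrk1, where 33.8% of all protein-coding genes and 36.1% of those of the members' length had one. Klre1 and Klrk1 had theirs only through regions shared with Klrd1: region 21 inside Klrd1, and regions 23 and 24 between Klrd1 and Klrk1. Klrb1c had 1 weak region that neither factor held. 

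The longest list had a peak in the most member regions and the shortest in the fewest. LEF1 replicates 1, 2 and 3 had a peak in 24, 26 and 21 of the 27 regions, and TCF1 replicates 1, 2 and 3 in 20, 17 and 9. The same libraries had a peak in 69.9%, 96.9% and 60.9% (LEF1) and in 65.6%, 58.4% and 28.7% (TCF1) of all 38231 regions. Without TCF1 replicate 3, the shortest list, 17 member regions were found in every remaining library, and 9 when any other library was left out. With lists reduced to equal length, 11 regions remained, of which LEF1 held 11 and TCF1 10.

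**Figure D2:**
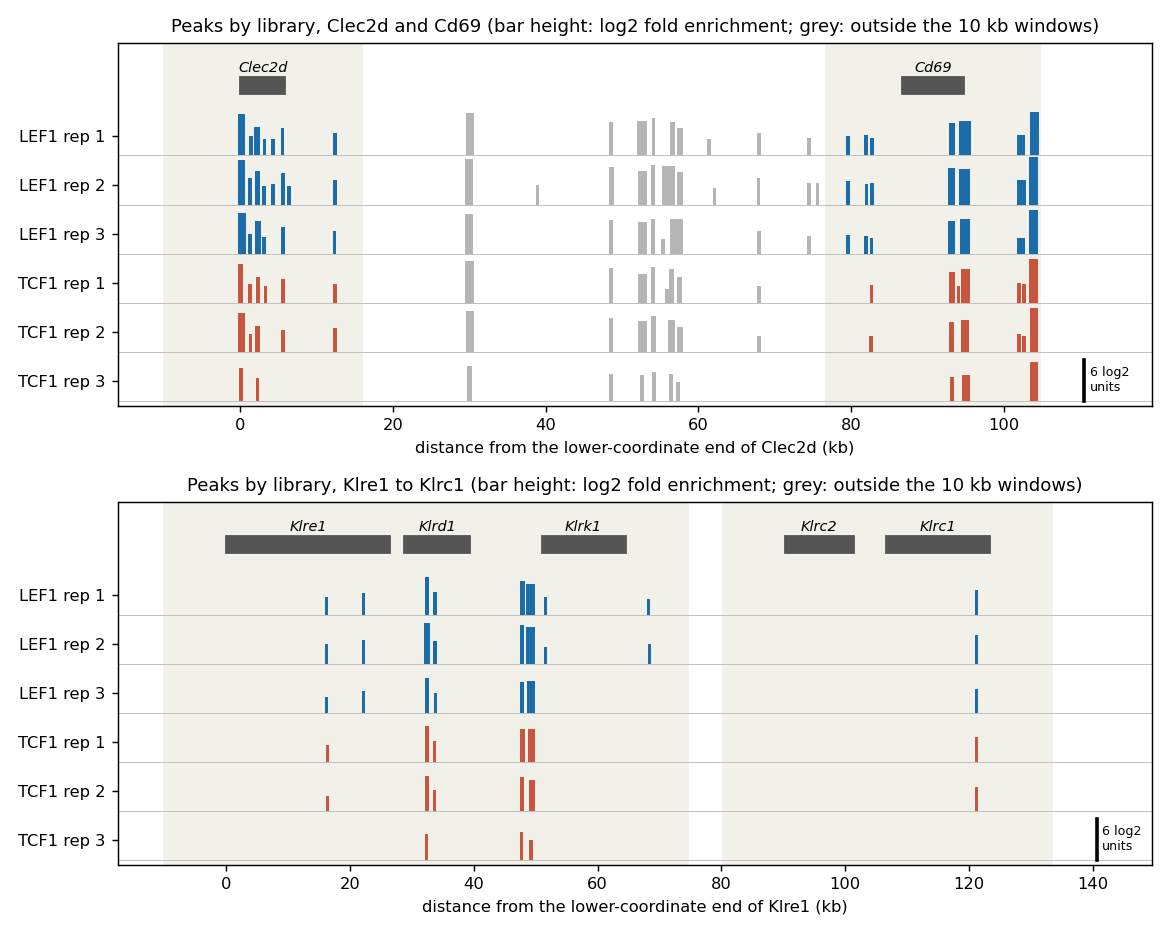
Peaks of the 6 libraries (rows) along the stretch from Clec2d to Cd69 (top) and from Klre1 to Klrc1 (bottom), with distance in kb from the lower-coordinate end of the first gene on the x axis and bar height giving the log2 of the authors' fold enrichment (scale bar at the right). Shaded strips are the gene bodies (dark bars) with 10 kb on each side, coloured bars are peaks of member regions and grey bars other peaks. TCF1 replicate 3 shows 5 member regions in the top stretch and 3 in the bottom one.

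Cd69 had the strongest of the 27 regions. Region 18 (129283958 to 129285223, 1266 bp) lay 8.58 kb beyond the higher-coordinate end of the gene, outside any gene of the RefSeq table. The fold enrichment, the peak caller's ratio of signal to background as the authors deposited it, was 79.6, 122 and 82.2 in LEF1 replicates 1, 2 and 3. It was 88.2, 84.6 and 52.5 in TCF1 replicates 1, 2 and 3. Every library placed the region among the strongest 0.422% to 0.972% of its own peaks.

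Because the lists differ in length, levels were compared by rank among the 10890 regions found in all 6 libraries, as percentiles where low values are the strongest. Region 18 stood at 2.47, 1.46 and 1.29 in the LEF1 libraries and at 1.77, 1.43 and 0.859 in the TCF1 libraries. The groups overlapped. The 6 summits fell within 34 bp.

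At Cd69 itself, regions 14 and 16 were found in all 6 libraries. Region 16 (129274825 to 129276287) spanned the higher-coordinate end of the gene at 129275375, and its summits lay between 8 bases inside and 48 bases outside that end. Its fold enrichment was 33.6, 37.2 and 33.0 in the LEF1 libraries and 29.2, 25.3 and 14.1 in the TCF1 libraries, in replicate order. LEF1 libraries placed it at percentiles 23.6, 35.9 and 18.4, on both sides of the TCF1 libraries at 29.6, 31.5 and 27.5.

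Region 14 (129273326 to 129274286, 961 bp) lay wholly inside Cd69. The fold enrichment was 28.6, 40.8 and 27.0 in LEF1 replicates 1 to 3 and 23.5, 19.9 and 10.6 in TCF1 replicates 1 to 3. The LEF1 libraries placed it at percentiles 32.3, 30.4 and 26.8, and the TCF1 libraries at 42.7, 46.6 and 44.4, so the groups did not overlap and LEF1 ranked it higher. On a normal-score scale of these ranks, where higher is stronger, the difference was 0.39 ± 0.0936 (LEF1 minus TCF1, SE; limma, Benjamini-Hochberg adjusted p = 0.0493 over all 10890 regions). The call was lost whichever library was left out (difference 0.3 to 0.43, limma, adjusted p = 0.086 to 0.182) and when regions were ranked by the authors' −log10 q (difference 0.2, limma, adjusted p = 0.207).

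The other Cd69 regions were weaker. Regions 11 (129260003 to 129260446) and 12 (129262521 to 129262814), 6.88 and 4.51 kb below the lower-coordinate end, had peaks in all 3 LEF1 libraries but in no TCF1 library, with fold enrichments of 6.91, 11.4 and 6.85 and of 7.64, 8.06 and 5.82. They stood at percentiles 50.1 to 86.4 of the LEF1 lists, in the weaker part of each. Regions 13 and 17 lacked a peak in TCF1 replicate 3 alone, with fold enrichments of 4.82 to 9.37 and of 5.03 to 11.6. Region 17 ended less than 1 kb below region 18. Region 15, between regions 14 and 16, was seen in TCF1 replicate 1 alone.

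Clec2d carried its leading region at its start. Region 3 (129180306 to 129181411, 1106 bp) covers the printed sequence and was found in all 6 libraries, with a fold enrichment of 66.9, 95.8 and 60.8 in LEF1 replicates 1 to 3 and of 53.2, 52.0 and 26.9 in TCF1 replicates 1 to 3. It stood at percentiles 4.55, 3.88 and 4.06 among the common regions in LEF1 and at 8.3, 6.75 and 7.17 in TCF1. All 3 LEF1 libraries thus ranked it above all 3 TCF1 libraries. The score difference of 0.29 ± 0.0889 (SE) did not pass the threshold (limma, adjusted p = 0.0973).

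Inside the gene, regions 4 to 8 followed one another over the 5.92 kb body. Region 5 (129182482 to 129183383) was found in all 6 libraries, with fold enrichments of 18.6, 31.1 and 28.2 in LEF1 and 13.9, 13.3 and 9.99 in TCF1. Its percentiles were 59.7, 47.3 and 25 in LEF1 and 79.0, 75.5 and 48.1 in TCF1. The groups overlapped, and the spread of 17.6 (SD, n = 3) in LEF1 was the widest LEF1 spread among the 9 regions found in all 6 libraries. The score difference of 0.65 ± 0.305 (SE) did not pass (limma, adjusted p = 0.223). Region 8, at the far end of the body, had fold enrichments of 16.5, 24.0 and 14.7 in LEF1 and 10.8 and 9.5 in TCF1 replicates 1 and 2, with no peak in TCF1 replicate 3. Region 4, next to the start region, had 6.11 to 14.3 in the same 5 libraries, and region 10, 6.29 kb past the gene, 6.93 to 12.6. Region 6 had 5.25 to 6.67 in the 3 LEF1 libraries and TCF1 replicate 1. Region 7 was found in LEF1 replicates 1 and 2 alone, and region 9, 0.419 kb past the gene, in LEF1 replicate 2 alone.

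Klrd1, the gene of CD94, had 3 regions of all 6 libraries in reach. Region 21 (129591348 to 129592347) lay inside the gene and within 10 kb of Klre1, whose product forms heterodimers with Klri1 and Klri2. The fold enrichment there was 47.9, 64.6 and 35 in LEF1 replicates 1 to 3 and 38.6, 34.1 and 14.6 in TCF1 replicates 1 to 3. Its percentiles were 11.1, 11.6 and 16.4 for LEF1 and 17.2, 18.1 and 25.7 for TCF1, again without overlap. The difference of 0.30 ± 0.125 (SE) did not pass (limma, adjusted p = 0.183). The 6 summits lay within 16 bp. Region 22, also inside Klrd1, had 10.1, 10.6 and 7.46 in LEF1 and 8.23 and 8.4 in TCF1 replicates 1 and 2.

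Regions 23 (129606775 to 129607627) and 24 (129607744 to 129609268) lay between Klrd1 and Klrk1, 2.70 and 1.05 kb below the lower-coordinate end of Klrk1. Region 23 had fold enrichments of 30.3, 49.3 and 22.3 in the LEF1 libraries and 28.7, 30.4 and 17.1 in the TCF1 libraries. Region 24 had 23.2, 41.3 and 26.3 in LEF1 and 27.4, 22.7 and 7.62 in TCF1. At both regions the ranks of the groups overlapped, and TCF1 replicate 3 went opposite ways: it ranked region 23 at percentile 18.8, the highest of the 6 libraries, and region 24 at 69.3, the lowest.

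No region touched the annotated start windows of Klre1 or Klrk1. The nearest region to the Klre1 windows, region 19, lay 2.41 kb upstream of the start site at 129578213. That start site is internal to the annotated gene, which begins at 129559365, so region 19 is inside the gene body. The nearest region of Klrk1 lay 3.66 kb upstream of its start site at 129623864. The regions inside Klre1 were weak: region 19 had fold enrichments of 4.63 to 7.26 in 5 libraries. Region 20 (129581389 to 129581748) had 8.75, 10.7 and 8.81 in the LEF1 libraries and no TCF1 peak. It stood at percentiles 53.3 to 62.5 of the LEF1 lists. Regions 25 and 26, inside and past Klrk1, were found in LEF1 replicates 1 and 2 alone with fold enrichments of 5.17 to 7.27.

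The partners of CD94 differed from it. Klrc2 had no region in its body or within 10 kb in any of the 6 lists. Klrc1 had region 27 (129680495 to 129680805), inside the gene body and 1.52 kb upstream of the printed start site. Its fold enrichment was 12, 17.7 and 11.5 in LEF1 replicates 1 to 3 and 12.9 and 11.7 in TCF1 replicates 1 and 2. TCF1 replicate 3 had no peak there. Klrc1, Klrc2 and Klrc3 are similar in sequence, and how reads that map to several places were treated is not given in the sources used here, so the counts at these genes are uncertain.

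Klrb1c and Klrg1 had 1 region each within 10 kb. The only Klrb1c region, region 2 (128796442 to 128796620), was found in LEF1 replicate 2 and TCF1 replicate 1, with fold enrichments of 7.09 and 4.57. It lay 7.80 kb beyond the higher-coordinate end, where the start site of the gene (128788641) is. The only Klrg1 region, region 1 (122291538 to 122292607), lay 8.71 kb beyond the gene. It was found in all 6 libraries, with fold enrichments of 30.6, 44.6 and 27.5 in LEF1 and 33.3, 28.2 and 14.7 in TCF1. Its percentiles were 28.5, 25.8 and 26.0 in LEF1 and 23.4, 26.0 and 25.3 in TCF1, with overlapping groups, and its 6 summits lay within 15 bp.

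**Figure D3:**
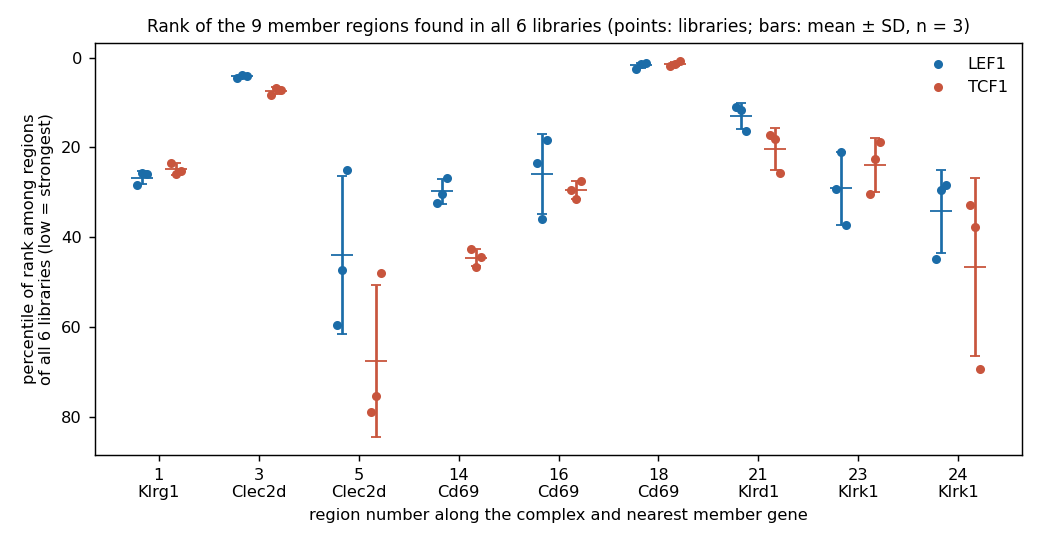
Percentile of rank among the 10890 regions found in all 6 libraries (y axis, low values at the top are the strongest) for the 9 member regions in that set (x axis, region number and nearest member gene). Points are libraries and bars the mean ± SD (n = 3). Region 18 stands at percentiles 0.859 to 2.47, and the groups separate at regions 3, 14 and 21.

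By their median, the 9 common regions stood in the stronger part of the order, with region 5 in the weaker part for TCF1 (67.5 ± 16.9, SD, n = 3). The median percentile of the 9 among the 10890 regions was 28.5, 25.8 and 25 in LEF1 replicates 1 to 3 and 29.6, 26.0 and 25.7 in TCF1 replicates 1 to 3, where the median of all is 50 by construction. They were also wide, with a median of 1070 bp against 687 bp for all common regions.

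Between the factors, 1 of the 9 passed the rank test, with LEF1 higher, where 9.06% of all common regions passed in either direction, 3.13% with LEF1 higher and 5.93% with LEF1 lower. The groups did not overlap at 3 of the 9, all with LEF1 higher, where 34.9% of all common regions did not overlap, 17.4% with LEF1 higher and 17.5% with LEF1 lower. A region taken alone cannot give p below 0.1 in an exact permutation test of 3 against 3 libraries. The median score difference was 0.29 over the 9 members and 0.031 over all common regions, and 6 of the 9 differences were positive, where 54.0% of all were.

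**Figure D4:**
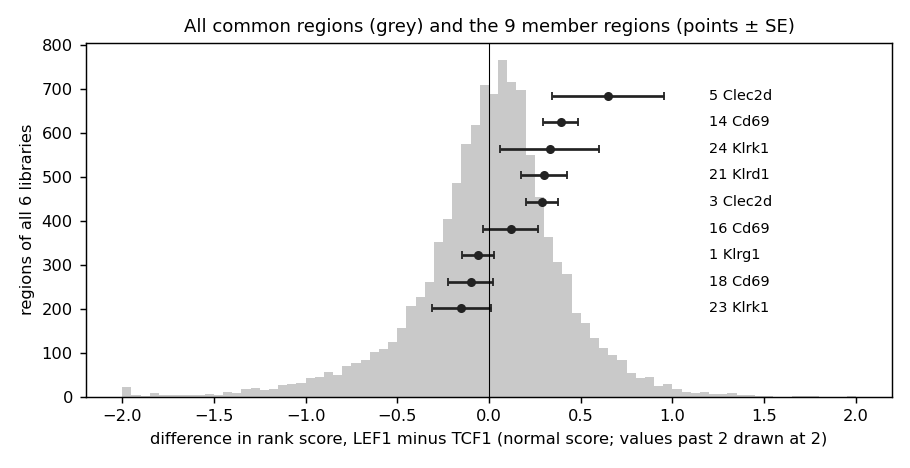
Histogram of the difference in rank score, LEF1 minus TCF1, over the 10890 common regions (x axis, normal scores; y axis, number of regions), with the 9 member regions as points ± SE at arbitrary heights, labelled by region number and nearest gene. The members lie between -0.15 (region 23) and 0.65 (region 5).

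The spacing of summits at the members was near that of all common regions. The 6 summits of a region spanned at most 50 bp at 6 of the 9 regions, where 50.9% of all common regions did so. The median span was 43.0 bp at the members and 49.0 bp over all common regions. The widest was 151 bp at region 5, where the summit of TCF1 replicate 1 lay apart from the others. At region 14 all LEF1 summits lay at higher coordinates than the TCF1 summits, by 34.7 bp on average and by 1 bp at the closest pair.

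The 10 kb limit left out other regions of the complex. Just inside it lay regions 18 and 1, at 8.58 and 8.71 kb. Just outside lay a weak region 10.7 kb beyond Klrb1c, with fold enrichments of 4.64 in LEF1 replicate 2 and 5.78 in TCF1 replicate 1. Next came an interval of LEF1 replicate 2 alone, 11.0 kb below Cd69 with a fold enrichment of 8.61. Klrb1c had a region in 5 libraries 11.2 kb below it, with fold enrichments of 9.63 to 20.8, and one in all 6 libraries 14.4 kb beyond it (128803078 to 128803549, 11.6 to 34.9). A strong region in all 6 libraries lay 25.5 kb beyond Klrg1, overlapping the gene M6pr, with fold enrichments of 45.1 to 103.

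The strip between the windows of Clec2d and Cd69, 60.8 kb long, held 11 regions, of which 5 were found in all 6 libraries. The first of those 5 (129210086 to 129211289), 23.6 kb past Clec2d and inside the long non-coding RNA gene Gm38906, had fold enrichments of 78.6, 106 and 58.1 in LEF1 and 70.4, 65.1 and 33.3 in TCF1. Another 3 overlapped the long non-coding RNA gene 2310001H17Rik, 28.7 to 33.4 kb below Cd69, with fold enrichments of 13.5 to 58.2. To which gene a region between genes belongs cannot be read from peak lists. With 50 kb on each side the members had 60 regions, and with the gene body alone 15.

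The remaining genes of the complex were near the background for LEF1 and below it for TCF1 and for all 6 libraries. Of 33 other protein-coding genes from Klrb1a to Klra2, 17 had a region held by LEF1, 8 one held by TCF1 and 3 one found in all 6 libraries, where 52.6%, 49.8% and 33.8% of all protein-coding genes did. Their 34 regions included 24 held by LEF1, 13 held by TCF1 and 4 found in all 6, where the shares over all regions were 71.7%, 55.5% and 28.5%. Region 26, within 10 kb of Klrc3 and held by LEF1, is counted both here and among the member regions. Klrb1b, which encodes an inhibitory receptor of the Klrb1 family, had 5 LEF1-held and 3 TCF1-held regions. Clec2m had 4 and 3, Clec12b 3 and 0, and Clec2i, a relative of Clec2d, 2 and 2.

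The 11 Klra genes, which encode the Ly49 receptors for MHC class I, had 7 regions together and none in all 6 libraries. LEF1 held a region at 3 of them and TCF1 at 2. The group of Clec12a to Gabarapl1, between Cd69 and Klre1, had 6 regions together, of which LEF1 held 4 and TCF1 none. The LEF1-held regions lay at 5 of 8 genes, some of which share regions. Klra genes are a family of related sequences, and how reads matching several of them were treated is not known here, so these counts are uncertain.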

How the data were processed

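The data were 6 CUT&RUN peak lists, 3 of LEF1 and 3 of TCF1, grouped by sample titles. Per the submitters' processing notes, processing named MACS3 3.0.3 and Bowtie2 2.4.4, with Trim Galore 0.6.6, deepTools 3.5.1, FastQC 0.12.1 and Picard, on build GRCm38.p6. Which control, options and filters went into peak calling is not stated there. Peaks were called per library, as the deposited peak names show. The fold enrichment deposited by the authors is a ratio of signal to background at each peak. The p-value and q-value were deposited as −log10 values. The score column the authors deposited was not used.

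Autosomal and sex-chromosome peaks were merged with pandas 2.3.3. Ranks of fold enrichment among the regions found in all 6 libraries were turned into normal scores and compared between factors with limma 3.58.1 (R 4.3.3), with Benjamini-Hochberg adjustment and a threshold of 0.05. The code was tested on simulated data. Genes and promoters came from RefSeq tables of GRCm38.p6. No genome was used, so motifs were searched in promoter windows and not in regions. Read depth is not given, so no counting interval is printed.

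Always named were the members, then the 4 other Klr, Clec, Olr1 or Gabarapl1 genes between Klrb1a and Klra2 with the most held regions, and genes sharing a region with a member. Regions in all 6 libraries, or in all libraries of 1 factor alone, are described in full. Gm38906, 2310001H17Rik, M6pr and regions outside the 10 kb were named after their values were seen. Members, lists and tests were chosen with earlier results of these data known. Alternatives were equal list sizes, a stricter q, a larger overlap, all 3 libraries, other windows, other rank measures and tests, and leaving out each library.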

Additional observations from a re-analysis of the deposited data

How the results depend on the processing

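Counts of member regions depend on list length and on the window. The 27 regions became 11 with equal list sizes, 15 with the gene body alone and 60 with 50 kb on each side. LEF1 then held 11, 14 and 47, and TCF1, and both factors, held 10, 10 and 36. The 9 regions of all 6 libraries became 5 and 19 with the body alone and 50 kb, and 3 when a peak had to cover at least 50% of the region. Requiring all 3 libraries left 9 held by TCF1 and by both. Leaving out a library gave 9 to 17 regions held by TCF1 and by both, lowest without TCF1 replicate 1 or 2, and 9 to 17 found in all remaining libraries, highest without TCF1 replicate 3. The number of genes with a held region, 7 for each factor, changed by no more than 1.5 times under any alternative run.

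In the rank test by limma, 987 of all common regions passed. Equal list sizes gave 502 of 8176 common regions. Leaving out a library gave 303 to 584. The number tested was then 10901 to 19075, highest without TCF1 replicate 3, where 556 passed, so the counts are not over the same set. The groups did not overlap at 3798 regions. An exact permutation test of 3 against 3 libraries cannot give p below 0.1, so that count is not one of regions passing 0.05. The member call (region 14) became 0 with ranks by −log10 q and 0 whichever library was left out, and 3 regions had groups without overlap. Of 90 other fits for the 9 member regions, 0 reversed direction, but some differences nearly vanished. That of region 16 was 0.0 after rounding without LEF1 replicate 3, and that of region 24 fell from 0.33 to 0.03 without TCF1 replicate 3. With the replicate number as a block 507 regions passed, region 14 lost its call (limma, adjusted p = 0.106) and region 5 gained one (limma, adjusted p = 0.048). The numbers were not taken as a pairing: deviations of same-numbered libraries correlated at 0.03, 0.06 and 0.07, although each library correlated best with its own number. The mean over libraries of the median percentile of the 9 common member regions in each library's own list was 13.4, and 25.7 with equal list sizes. With CTTTGAT alone 0 of the 8 member promoter windows held a match, instead of 1.

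Read depth is not given, so a missing peak, as at Klrc2, is no measured absence.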
